A study of Mus musculus with 2 samples.

Results

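NF-kB is a family of dimeric transcription factors that switch on inflammatory, survival and cytokine genes, and 10 of its genes were followed in mouse hematopoietic stem cells (HSCs) sorted by a reporter of the chromatin organizer SATB1. The 10 genes were taken by symbol: the 5 subunit genes Nfkb1, Nfkb2, Rel, Rela and Relb, the 4 inhibitor genes Nfkbia, Nfkbie, Nfkbiz and Tnfaip3, and the cytokine target gene Il6. All 10 were found among the 23210 gene symbols used. There was 1 RNA sequencing library of Satb1-Tomato-positive (SATB1-positive) cells and 1 of Satb1-Tomato-negative (SATB1-negative) cells. Both fractions carried the Satb1-Tomato reporter and lay in the same gate, LSK (lineage-negative, Sca-1-positive, Kit-positive), CD150-positive and Flt3-negative. The labels give no treatment, strain, age or number of animals for either fraction. The comparison asks by how much each gene differs between SATB1-positive and SATB1-negative HSCs.

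In resting cells NF-kB dimers are held in the cytoplasm by inhibitor proteins of the IkB family, which bind them through ankyrin repeats. Signals from receptors for TNF, interleukin-1 or microbial products activate the IKK kinase complex, which marks the inhibitors for destruction and frees the dimers to enter the nucleus. The freed dimers switch on, among other genes, those of their own inhibitors, so the transcripts of Nfkbia and Tnfaip3 are widely used as readouts of the pathway. In blood stem and progenitor cells the pathway is known for its part in survival and in the response to infection and inflammation.

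Each level is given in FPKM, the number of fragments divided by the length of the transcript and by the size of the library, a value per length that can be set side by side between genes. With 1 library per group there is no replicate check and no test. The log2 ratio of a gene is that of SATB1-positive over SATB1-negative FPKM after adding 1 to each, which understates differences of genes with low levels. By the rule of size a gene was higher at a log2 ratio of 1 or more, and lower at -1 or less, provided that 1 of the libraries reached 5 FPKM. A fold is the plain ratio of the FPKM values, and the interval in brackets beside it is an exact (Clopper-Pearson) 95% interval for counting error only. It rests on fragment numbers estimated from depths of about 26680000 fragments in the SATB1-positive and 34920000 in the SATB1-negative library. Neither the spread between animals or sorts nor PCR copies of a molecule are covered.

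The 2 libraries matched their labels for the reporter gene. Satb1 was at 8.26 FPKM in the SATB1-positive and 2.37 FPKM in the SATB1-negative library, and the gate genes Kit (286 and 318 FPKM), Ly6a, which encodes Sca-1 (73.9 and 64.5 FPKM), Slamf1, which encodes CD150 (11.9 and 15.97 FPKM), and Flt3 (27.1 and 17.3 FPKM) were expressed in both. Flt3 transcript was present although the cells were sorted as Flt3-negative. The 2 fractions also differed in genes of stem and progenitor cells. Of 14 such genes, Satb1 and the gate genes above among them, Satb1 and Cd48 were higher and 0 lower by the rule of size. Of the 14, 8 had a log2 ratio below 0. The cells were sorted by the Satb1 reporter, and Satb1 reached 5 FPKM only in the SATB1-positive library, so its place as higher follows from the sort. Cd48, a progenitor marker, was at 145 and 47.6 FPKM, and the HSC genes Esam (34.2 and 68.5 FPKM), Mecom (31.1 and 49.4 FPKM) and Vwf (6.79 and 12.3 FPKM), chosen after their values were seen, were under the rule. Markers of other cell types differed between the libraries. Of all genes that reached 5 FPKM in a library, 1.31% were higher and 0.688% lower by the rule of size. Of 20 T and NK cell markers, 10 reached 5 FPKM, and 10 were higher and 0 lower. The summed level of the 20 was 477 FPKM in the SATB1-positive and 186 FPKM in the SATB1-negative library. Its largest term was Nkg7, at 313 and 152 FPKM. Of 11 basophil and mast cell markers, 9 reached 5 FPKM, and 6 were higher and 0 lower (sums 2682 and 1617 FPKM). The largest term of these sums was Prg2, at 1815 and 1222 FPKM, which did not meet the rule. The mast cell genes Tpsab1 and Cma1 were listed at 0 in the SATB1-negative library. Of 12 neutrophil markers, 11 reached 5 FPKM, and 3 were higher (Mpo, Elane and Ctsg) and 0 lower (3699 and 1903 FPKM). The largest terms of these sums were Mpo, at 1528 and 437 FPKM, and Elane, at 1081 and 490 FPKM. Of the 12 ratios, 6 were above 0 and 6 below (median 0.01), the latter those of Camp, Ltf, Ngp, S100a8, Lcn2 and Retnlg. Of 10 stromal and endothelial markers, 6 reached 5 FPKM, and 4 were higher and 0 lower (130 and 79.5 FPKM). The 4 were the stromal genes Col1a1, Col1a2, Pdgfrb and Sparc, and none was endothelial. Of the endothelial genes, Pecam1 was at 22.9 and 20.6 FPKM and Emcn at 14.5 and 20.7 FPKM, and Kdr and Cdh5 were under 1 FPKM in both libraries. Most of the higher T and NK cell markers (Cd3e, Cd3g, Cd3d, Cd2, Il2rb, Gzmb and Cxcr6) reached 5 FPKM only in the SATB1-positive library. So did the basophil and mast cell markers Fcer1a and Ms4a2 and the stromal marker Pdgfrb. The place of these markers among the counted genes is thus tied to their direction. The higher T and NK cell markers Nkg7, Ccl5 and Ms4a4b reached 5 FPKM in both libraries. Of 12 monocyte and dendritic cell markers (769 and 599 FPKM), 6 reached 5 FPKM, and none met the rule. Of 10 B cell markers (36.2 and 36.1 FPKM), 1 reached 5 FPKM, Cd79b, at 33.9 and 34.3 FPKM, which did not meet the rule. The other B cell markers were too low to meet it, with Pax5 listed at 0 in the SATB1-positive and Igll1 at 0 in the SATB1-negative library. The part of these cells in the NF-kB results was not tested.

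Of the 10 members, 2 met the rule of size as higher in SATB1-positive HSCs, the inhibitor gene Tnfaip3 and the cytokine gene Il6, and 0 met it as lower. Among the 9308 genes that reached 5 FPKM in a library, 1.31% were higher and 0.688% lower by the same rule. Of the 8243 among them whose symbol the GENCODE M21 annotation lists as protein-coding, 1.13% were higher and 0.412% lower. Symbols absent from that annotation, older ones among them, were not counted there. The 5 subunit genes all stayed under the rule, and their summed level was 151 FPKM in the SATB1-positive and 152 FPKM in the SATB1-negative library. The 4 inhibitor genes summed to 523 and 353 FPKM. The median log2 ratio of the 10 members was 0.26, against -0.0059 over 11873 genes that reached 1 FPKM in a library, and 7 of the 10 had a ratio above 0, against 49.0% of those genes. In sorted populations, a difference in the number of cells that express a gene and a difference in its RNA per cell cannot be told apart.

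**Figure D1:**
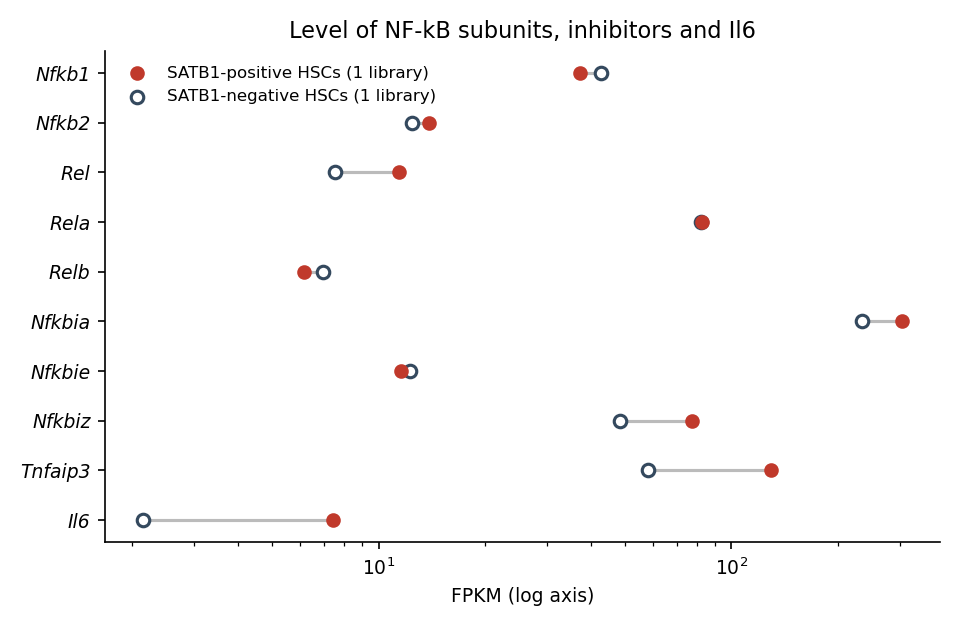
FPKM of each member (log axis) in the SATB1-positive library (filled points) and the SATB1-negative library (open points), 1 library each. The points of Rela coincide near 82 FPKM, while those of Tnfaip3 lie at 130 and 57.9 FPKM and those of Il6 at 7.42 and 2.15 FPKM.

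The promoters of the 2 higher members and of Nfkbia, the most abundant member, are shown because each holds a match to the kB consensus, the binding motif of NF-kB dimers. The 100 bases before a start that RefSeq annotates for each gene are written 5′ to 3′ on the strand of the gene, from RefSeq on build GRCm38.p6 (the mm10 assembly), with the match in capitals. GENCODE M21, the source of the gene coordinates given for the members, adds a transcript of Tnfaip3 that begins further upstream, so the Tnfaip3 stretch lies inside the gene as GENCODE bounds it.
Tnfaip3, chr10:19015411-19015510, minus strand: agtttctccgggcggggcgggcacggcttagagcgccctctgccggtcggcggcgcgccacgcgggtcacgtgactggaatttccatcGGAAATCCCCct
Il6, chr5:30013014-30013113, plus strand: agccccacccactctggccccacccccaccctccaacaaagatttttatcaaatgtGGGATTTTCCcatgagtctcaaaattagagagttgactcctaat
Nfkbia, chr12:55492648-55492747, minus strand: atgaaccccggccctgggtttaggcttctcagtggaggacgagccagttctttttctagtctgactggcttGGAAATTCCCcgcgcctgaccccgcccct
Counting the base just before the start as -1, the match shown lay at -12 to -3 in Tnfaip3, -44 to -35 in Il6 and -29 to -20 in Nfkbia. The Il6 match read on the strand of the gene and the other two on the opposite strand. The search covered both strands of the 250 bases before each start, and a match on both strands at 1 position counted as 1 promoter with a match. Of the members, 7 had an entry in the promoter table, with 10 start windows between them, and 6 of the 7 held a match in at least 1 window: Tnfaip3, Il6, Nfkbia, Nfkbie, Rel and Nfkb2, but not Rela. Over all 27025 genes of the table the share was 8.23%, and over all 32851 windows 7.25%. The motif stood in the promoters of members with high ratios (Il6, Tnfaip3) and of members with ratios near 0 (Nfkbie, Nfkb2) alike. The Tnfaip3 window shown also held a match at -125 to -116, read on both strands and outside the bases printed. A second start window of Tnfaip3 held no match. Gene-level FPKM does not say which start was used.

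Rela encodes p65, the subunit with a transactivation domain in the commonest NF-kB dimer, and lies on chromosome 19 at 5637483 to 5648130, plus strand (mm10). It was at 82.7 FPKM in SATB1-positive and 82.1 FPKM in SATB1-negative HSCs, a fold of 1.01 (0.972 to 1.04), with a log2 ratio of 0.01. The 2 libraries differed by less than the counting error, and Rela was the most abundant subunit transcript in both. It made up 54.7% of the summed FPKM of the 5 subunits in the SATB1-positive and 54.1% in the SATB1-negative library.

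Nfkb1 encodes p105, the precursor of p50, the usual partner of p65. It was at 37.1 FPKM in SATB1-positive and 42.8 FPKM in SATB1-negative HSCs, a fold of 0.868 (0.833 to 0.904). The interval left out 1, and the log2 ratio of -0.20 was under the rule of size. Of the 9308 genes, 20.1% had a ratio at or below it, and their median absolute log2 ratio was 0.16. Nfkb1 was the second most abundant subunit transcript in both libraries, at 24.5% of the subunit sum in the SATB1-positive and 28.2% in the SATB1-negative library.

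Rel stood apart from the other subunits. The gene encodes c-Rel, a transactivating subunit best known in lymphocytes, and lies on chromosome 11 at 23736847 to 23770970, minus strand. Its level was 11.4 FPKM in SATB1-positive and 7.52 FPKM in SATB1-negative HSCs, 1.52-fold higher (1.43 to 1.62; about 2211 and 1906 fragments). The log2 ratio of 0.54 was under the rule of size, and 4.38% of the 9308 genes had a ratio as high or higher. Rel made up 7.55% of the subunit sum in the SATB1-positive library and 4.95% in the SATB1-negative library.

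Nfkb2 and Relb encode the partners of the alternative branch of the pathway, in which the p100 precursor is processed to p52 and pairs with RelB. Nfkb2 was at 13.9 FPKM in SATB1-positive and 12.5 FPKM in SATB1-negative HSCs, a fold of 1.11 (1.02 to 1.21). Relb was the least abundant subunit transcript in both libraries, at 6.13 FPKM in SATB1-positive and 6.96 FPKM in SATB1-negative HSCs, a fold of 0.881 (0.762 to 1.01). The 2 genes thus had ratios on opposite sides of 0, both within 0.2 on the log2 scale, as 59.8% of the 9308 genes were. The exons of Nfkb2 share 299 bases with those of Psd and 531 with those of the noncoding gene AC114539.1, both on the opposite strand, and 14.9% of its 50-base words also occur in transcripts of other genes, against at most 0.674% for the other 9 members; the strand setting of counting is not given in the sources used here. The Rel and Relb levels were close in the SATB1-negative library, with a ratio of 1.08, and further apart in the SATB1-positive library, with a ratio of 1.86.

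**Figure D2:**
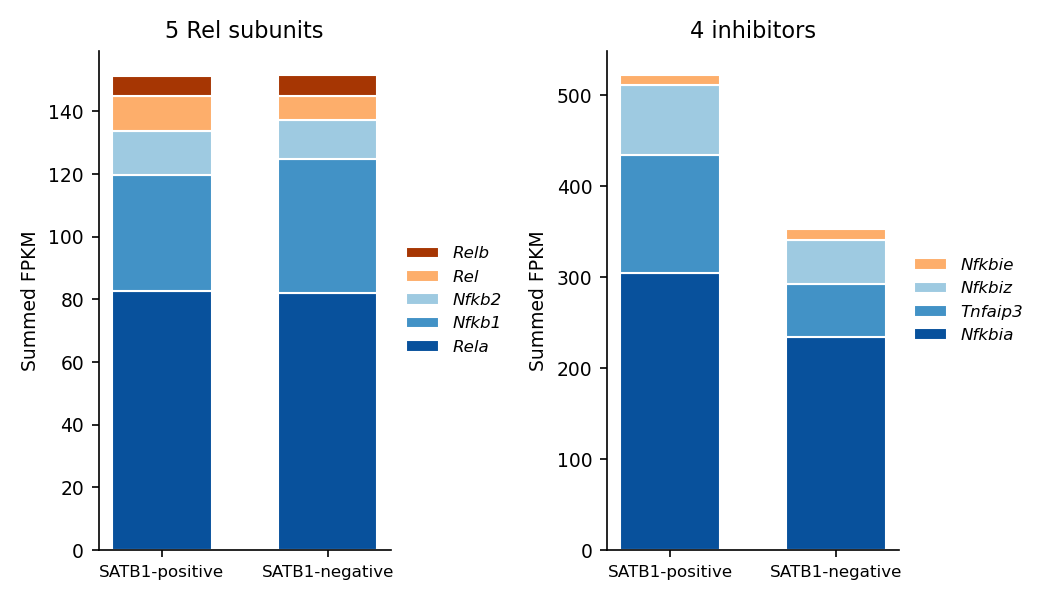
Summed FPKM of the 5 subunit genes (left) and the 4 inhibitor genes (right), stacked by gene, in 1 SATB1-positive and 1 SATB1-negative library. The subunit bars have nearly the same height, 151 and 152 FPKM, while the inhibitor bars reach 523 and 353 FPKM.

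Nfkbia encodes IkB-alpha, the inhibitor that is destroyed and made anew in each round of activation, and lies on chromosome 12 at 55489410 to 55492647, minus strand. It was the most abundant of the 10 members in both libraries, at 304 FPKM in SATB1-positive and 235 FPKM in SATB1-negative HSCs. The gene was 1.30-fold higher (1.26 to 1.33; about 11148 and 11258 fragments) with a log2 ratio of 0.37, which 8.75% of the 9308 genes reached. In the SATB1-positive library 0.857% of all 23210 genes had a level at or above that of Nfkbia, and in the SATB1-negative library 1.24%. The ratio of Nfkbia to Rela transcripts was 3.68 in the SATB1-positive and 2.86 in the SATB1-negative library.

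Nfkbie encodes IkB-epsilon, a second cytoplasmic inhibitor that acts with slower kinetics. It was at 11.6 FPKM in SATB1-positive and 12.3 FPKM in SATB1-negative HSCs, a fold of 0.940 (0.849 to 1.04). Its interval included 1, whereas that of Nfkbia did not. Nfkbia exceeded Nfkbie 26.3-fold in the SATB1-positive and 19.1-fold in the SATB1-negative library.

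Nfkbiz encodes IkB-zeta, an inducible nuclear member of the family that works with p50 and is needed for the transcription of a later set of NF-kB targets, Il6 among them, in macrophages. The gene lies on chromosome 16 at 55811375 to 55838899, minus strand. It was at 77.3 FPKM in SATB1-positive and 48.3 FPKM in SATB1-negative HSCs, 1.60-fold higher (1.55 to 1.66; about 7061 and 5776 fragments). The log2 ratio of 0.67 was under the rule of size, and 2.84% of the 9308 genes had a ratio as high or higher. With a threshold of 1.5-fold in place of 2-fold on the ratio after adding 1, Nfkbiz joined Tnfaip3 and Il6. This made 3 of 10 members higher and 0 lower, against 3.80% of genes higher and 2.90% lower. Rel, with a plain fold of 1.52, stayed under this threshold at a log2 ratio of 0.54. With a pseudocount of 0.1 the Rel log2 ratio was 0.596, above 1.5-fold, so the count of 3 depends on the pseudocount.

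Tnfaip3 encodes A20, a ubiquitin-editing enzyme that ends NF-kB signalling upstream of IKK, and lies on chromosome 10 at 19000910 to 19015657, minus strand. It was at 130 FPKM in SATB1-positive and 57.9 FPKM in SATB1-negative HSCs, 2.24-fold higher (2.18 to 2.30; about 14292 and 8343 fragments). A log2 ratio of at least its 1.15 was found for 96 of the 9308 genes (1.03%), and with a pseudocount of 5 the Tnfaip3 ratio was 1.10. Tnfaip3 was the second most abundant of the 4 inhibitor transcripts in both libraries, at 24.8% of their sum in the SATB1-positive and 16.4% in the SATB1-negative library. The ratio of Tnfaip3 to Nfkbia transcripts was 0.426 and 0.246.

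Il6 encodes interleukin-6, an inflammatory cytokine that acts on hematopoietic progenitors, and lies on chromosome 5 at 30013114 to 30019981, plus strand. It was at 7.42 FPKM in SATB1-positive and 2.15 FPKM in SATB1-negative HSCs, 3.45-fold higher (2.32 to 5.38). It was the lowest of the 10 members in the SATB1-negative library, with about 88 and 33 fragments behind its values when the shortest linked transcript is used for its length, and about 423 and 161 with the longest, which gave an interval of 2.86 to 4.15. The log2 ratio of 1.42 was the highest of the members and was reached by 68 of the 9308 genes (0.731%). With a pseudocount of 5 the ratio was 0.80, under the rule. The minimum of 5 FPKM was reached by Il6 only where it was high, in SATB1-positive cells, so its place among the counted genes is tied to its direction. Among the 9 members with at least 5 FPKM in both libraries, Tnfaip3 was the 1 that met the rule, against 0.694% of 8787 such genes as higher.

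**Figure D3:**
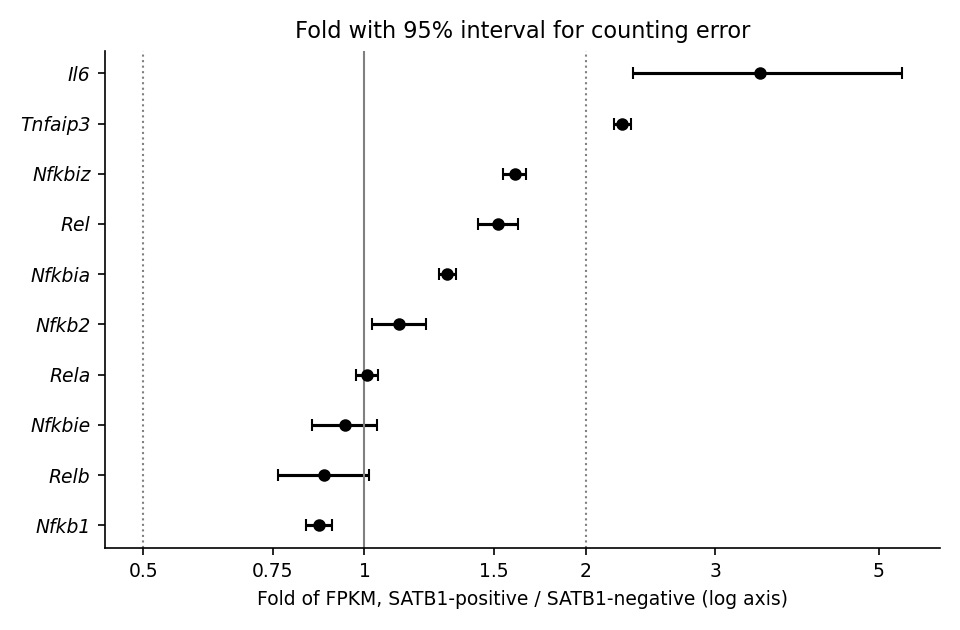
Fold of FPKM, SATB1-positive over SATB1-negative (log axis), for each member, with the 95% interval for counting error. The dotted lines mark 2-fold in either direction; the intervals of Rela, Relb and Nfkbie include 1, and those of Tnfaip3 and Il6 lie above 2.

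**Figure D4:**
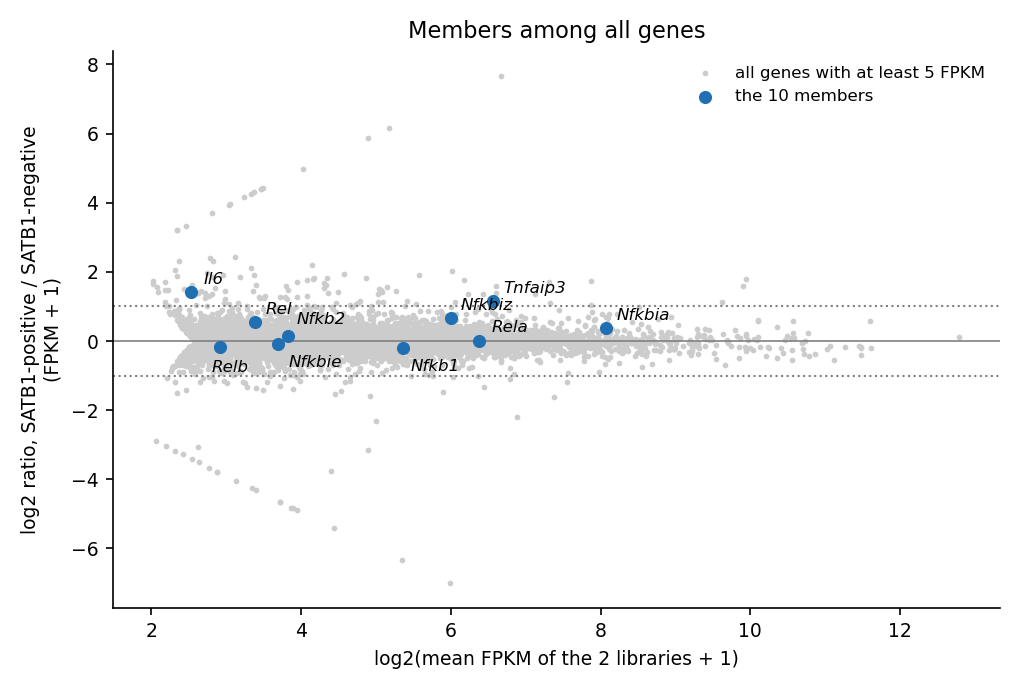
The log2 ratio of FPKM + 1 (SATB1-positive over SATB1-negative) against the log2 mean FPKM of the 2 libraries, for the 9308 genes that reached 5 FPKM (grey) and the 10 members (blue). Tnfaip3 and Il6 lie above the dotted line at 1, and the 5 subunit genes lie between -0.20 and 0.54.

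The rest of the pathway was followed in 7 lists of other genes, 128 in all, of which 94 reached 5 FPKM in a library. By the rule of size 4 were higher (Ccl3, Ccl5, Cxcl2 and Osm), 4.26% of the 94 against 1.31% of all 9308 genes, and 0 were lower, and the median log2 ratio of the 112 genes with at least 1 FPKM was 0.03. None of the 5 other IkB family genes met the rule. Nfkbid, which encodes the nuclear inhibitor IkB-NS and was the most abundant of them, was at 51.3 FPKM in SATB1-positive and 48.6 FPKM in SATB1-negative HSCs. The cytoplasmic inhibitor gene Nfkbib had the highest log2 ratio (0.22; 23.1 and 19.6 FPKM), and Bcl3, a nuclear partner of p50 and p52, the lowest of those at 5 FPKM (-0.07; 9.96 and 10.5 FPKM).

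None of 13 genes for the IKK complex and its neighbouring kinases met the rule, and their summed level was 248 FPKM in the SATB1-positive and 243 FPKM in the SATB1-negative library. Ikbkb, the catalytic IKK-beta subunit gene, was at 43.2 and 41.5 FPKM. The extremes were the TAK1-binding protein genes Tab3, at 5.76 and 4.72 FPKM, and Tab2, at 14.0 and 16.8 FPKM. The log2 ratios of these kinase genes ran from -0.25 to 0.24.

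None of 19 receptor genes met the rule. The TNF receptor gene Tnfrsf1a was the most abundant, at 58.4 FPKM in SATB1-positive and 61.0 FPKM in SATB1-negative HSCs. Il1r1, the interleukin-1 receptor gene, had the highest log2 ratio (0.45; 5.55 and 3.79 FPKM) and Tnfrsf13c, the BAFF receptor gene, the lowest (-0.44; 4.73 and 6.74 FPKM). None of 24 adaptor genes met it either. Rbck1, which encodes a partner in the linear ubiquitin ligase, was the most abundant, at 98.5 FPKM in SATB1-positive and 97.0 FPKM in SATB1-negative HSCs. Rnf31, the catalytic subunit gene of that ligase, had the highest log2 ratio (0.37; 11.1 and 8.38 FPKM), and Ripk2, a kinase gene downstream of NOD receptors, the lowest (-0.45; 12.4 and 17.2 FPKM).

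None of the 15 negative regulator genes met the rule. Tnip3 came closest to it. The gene, which encodes an A20-binding inhibitor, was at 6.14 FPKM in SATB1-positive and 12.6 FPKM in SATB1-negative HSCs, 2.06-fold lower (1.87 to 2.27), with a log2 ratio of -0.93 that crossed -1 with a pseudocount of 0.1. Tnfaip8l2, which encodes the immune regulator TIPE2, had the highest log2 ratio of the list (0.67; 17.2 and 10.4 FPKM). Tnip3 and Tnfaip3, partners at the protein level, thus had ratios of opposite sign. Zfp36, which encodes an RNA-binding protein that destabilizes cytokine transcripts, was the most abundant, at 540 and 498 FPKM.

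Among 33 target genes of NF-kB, 3 met the rule as higher and 0 as lower, out of 20 that reached 5 FPKM. Over all 9308 genes at 5 FPKM the shares were 1.31% higher and 0.688% lower. Ratios above 0 were found in 21 of the 27 targets that reached 1 FPKM (median 0.30), against 49.0% of all such genes. The neutrophil-attracting chemokine gene Cxcl2 was at 18.5 FPKM in SATB1-positive and 7.13 FPKM in SATB1-negative HSCs, 2.59-fold higher (2.20 to 3.06). Ccl3, a chemokine gene of leukocytes, was at 51.98 and 16.9 FPKM, 3.07-fold higher (2.69 to 3.50). Ccl5, which also stands in the T and NK cell marker list, was at 36.7 and 8.88 FPKM, 4.13-fold higher (3.31 to 5.24). The other target genes named here were chosen after their values were seen. Ccl4, a chemokine gene related to Ccl3, was just under the rule, at 107 and 55.3 FPKM (log2 ratio 0.94). Tnf was at 4.66 and 1.51 FPKM (log2 ratio 1.18) and Csf2, the GM-CSF gene, at 1.62 and 0.0694 FPKM, both under the 5 FPKM minimum. Other targets lay near or below 0: Icam1 was at 21.9 and 27.0 FPKM, Bcl2l1 at 23.1 and 28.2 FPKM and Sod2 at 34.7 and 31.8 FPKM.

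**Figure D5:**
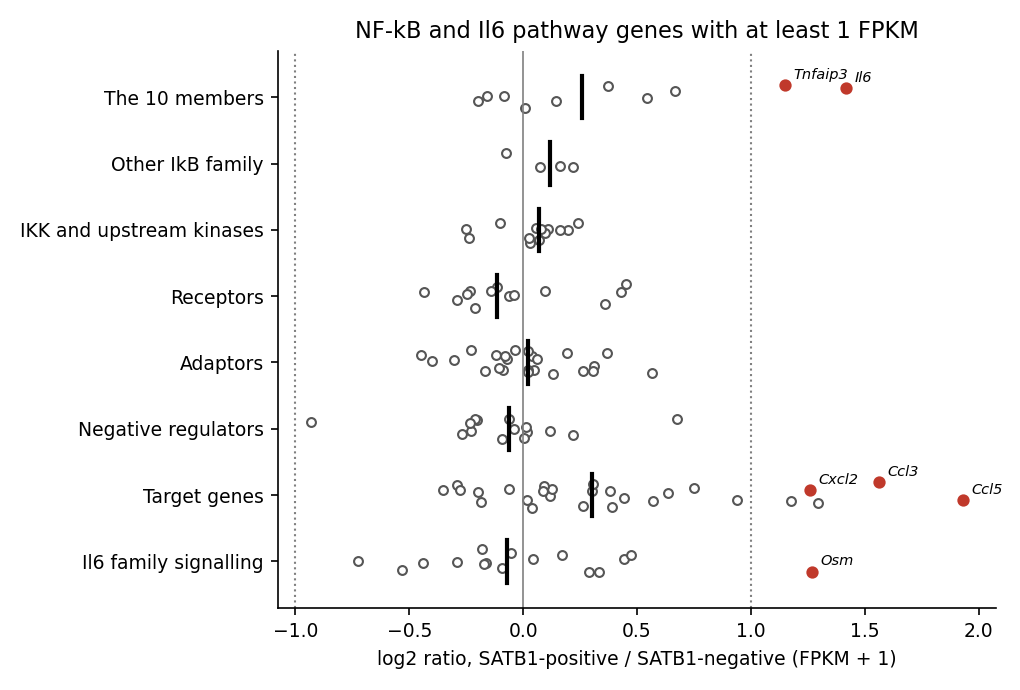
The log2 ratio of FPKM + 1, SATB1-positive over SATB1-negative, of the 10 members and of the genes with at least 1 FPKM in 7 pathway lists; each point is a gene, black bars are medians and dotted lines mark -1 and 1. Filled, named points met the rule of size: Tnfaip3 and Il6 among the members, Cxcl2, Ccl3 and Ccl5 among target genes, and Osm in the Il6 family list.

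Of 19 genes for the Il6 cytokine family and its signalling, Osm alone met the rule, and 7 of the 16 that reached 1 FPKM had a ratio above 0 (median -0.07). Osm encodes oncostatin M, a cytokine that signals through the shared receptor subunit gp130, and was at 20.8 FPKM in SATB1-positive and 8.04 FPKM in SATB1-negative HSCs, 2.59-fold higher (2.34 to 2.86). The other genes of this list named here were chosen after their values were seen. Il6ra, the receptor gene for interleukin-6, was at 3.02 and 2.29 FPKM, and Il6st, the gp130 gene, at 7.90 and 8.48 FPKM. The feedback inhibitor gene Socs3, a target of the receptor's STAT3 branch, was at 56.9 and 69.9 FPKM (log2 ratio -0.29), and Stat3 itself at 65.6 and 73.6 FPKM. Pim1, another STAT3 target, was at 47.7 and 34.1 FPKM (log2 ratio 0.47), and Cebpd at 7.77 and 5.46 FPKM (0.44), so genes of this list downstream of the receptor lay on both sides of 0.

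Several members, Tnfaip3, Nfkbia and Nfkbiz among them, are also induced when cells are handled. Of 18 immediate early and stress genes, 17 reached 5 FPKM. Of these, 2 met the rule as higher, the near-identical heat shock genes Hspa1a (15.2 and 5.61 FPKM) and Hspa1b (28.6 and 10.4 FPKM), and 0 as lower. Over all 9308 genes at 5 FPKM, 1.31% were higher and 0.688% lower. The summed level of the list was 8869 FPKM in the SATB1-positive and 9171 FPKM in the SATB1-negative library. Of the 18 log2 ratios, 13 were above 0 and 5 below (median 0.16), against 49.0% above 0 over all genes that reached 1 FPKM. The largest term of the sum was Hspa8, at 2673 and 3021 FPKM. Jun was at 703 and 550 FPKM, Btg2 at 126 and 85.7 FPKM and Fos at 486 and 406 FPKM. Egr1 was at 473 and 431 FPKM and Nr4a1 at 764 and 1072 FPKM. Hspa8 and these 5 genes were picked with their values in view. The part of handling in the NF-kB results was not tested.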

How the data were processed

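RNA of 2 sorted fractions, 1 library each, was extracted as total RNA and sequenced after a stranded SMARTer library preparation, per the labels' protocols. Per the file headers, the deposited values are FPKM for each gene symbol. Per the submitters' processing notes the processing used the build mm10 and the tools Cufflinks 2.2.1, TopHat2 2.0.13, SAMtools 0.1.19 and Bowtie2 2.2.3; their roles, settings and gene annotation are not stated there. Model-based FPKM can shift fragments between overlapping genes. Of 23235 rows per file, 25 with symbols turned into dates were left out.

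Ratios, counts and medians were computed with pandas 2.3.3 and intervals with scipy 1.17.1. Depth was estimated from the steps of low FPKM values of single-exon, single-transcript genes in GENCODE M21, with a length offset of 205 bases. Of 209 such values in the SATB1-positive and 174 in the SATB1-negative library, 62.7% and 60.9% came out whole (tolerance 0.05 fragments). A random depth would give 10%, but the search maximized this share, so the 2 are not comparable. The rule of size and the depth search were tested on simulated data.

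The members and lists were chosen with earlier results of these data known. Named genes were the 10 members, 5 sort genes, and in each pathway list those past the rule of size or, where none passed, the most abundant gene and the extremes of the ratio at 5 FPKM or more; genes named outside this rule are marked in the text as chosen after their values were seen. No gene was named by likeness of pattern, since 2 libraries give 1 ratio per gene. Otulin and Adgre1 were read under the older symbols Fam105b and Emr1. Alternatives were other pseudocounts, scalings, filters and thresholds.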

Additional observations from a re-analysis of the deposited data

How the results depend on the processing

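Leaving out a replicate was not possible with 1 library per group. No paired analysis was possible because the groups have 1 library each. The 10 members kept the sign of their log2 ratio under pseudocounts of 0.1 and 5 and under the 3 scalings. Scaling to TPM, which leaves the added 1 smaller beside the values, moved the log2 ratio of Il6 to 1.58 and that of Rel to 0.57, from 1.42 and 0.54 as reported. With a pseudocount of 5, 1 member (Tnfaip3) was higher, as were 68 of all genes and 2 pathway genes, and 36 of all genes were lower. With a minimum of 10 FPKM 1 member was higher. A 4-fold threshold left 0 members, 24 higher and 25 lower genes and 0 higher pathway genes. A 1.5-fold threshold gave 354 higher and 270 lower genes, with 7 higher and 2 lower pathway genes. A pseudocount of 0.1 made 1 pathway gene lower. Scaling to TPM gave 100 lower genes, and leaving out the filter on low values gave 81. TPM values are larger than FPKM, so more genes pass the same minimum and the added 1 is smaller beside the values. With protein-coding genes only, chosen after seeing the data, 34 genes were lower. That set holds only symbols that GENCODE M21 lists as protein-coding, so it also leaves out older symbols. Depth limits Il6 most, with about 33 fragments in the SATB1-negative library.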

Other observations

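Among the 33 listed NF-kB target genes, 26 had an entry in the promoter table, and 9 of them (34.6%) held the kB consensus within 250 bases before a start, against 8.23% of all genes in the table. The list was put together from known targets, so this share describes the list and was not tested.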
